A study of Mus musculus with 7 samples.

Results

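The genes described here carry long-chain fatty acids from the cell membrane of the heart muscle cell into the mitochondrial matrix. They were chosen by a list of 10 symbols, ordered along that path: Cd36, Slc27a1, Fabp3, Acsl1, Acacb, Mlycd, Cpt1b, Slc25a20, Cpt2 and Crat. Of these 10 genes, of 12394 named on the array, 8 had 13 probe sets of their own. Cpt1b was read only by the probe set 1418328_at, which the platform table assigns to Gm44502, Cpt1b and Chkb together. No probe set was named Acsl1 in the table used here, so that Acsl1 was not analysed.

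The data come from left ventricles of male mice aged 21 months, with a single-colour Affymetrix MOE430A array for each animal. The 3 knockouts, eNOS -/- mice without endothelial nitric oxide synthase (the product of Nos3), carry the numbers M4, M10 and M140 in the labels. The 4 controls, eNOS +/+ (wild type), carry M23, M125, M128 and M158. Values of single arrays are listed in this order within each group. The labels name strain, clone or treatment for neither group; a keyword names exercise without saying which animals exercised. The labels report failing heart function and early death in ageing male eNOS -/- mice, and ask which transcripts accompany this.

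Heart muscle burns mostly long-chain fatty acids. They enter through Cd36 and transport proteins of the Slc27 family, are carried in the cytosol by Fabp3, and are joined to coenzyme A by acyl-CoA synthetases. Acyl-CoA cannot cross the inner mitochondrial membrane, so that Cpt1b moves the acyl chain to carnitine, Slc25a20 exchanges acylcarnitine for carnitine, and Cpt2 gives the chain back to coenzyme A inside. Malonyl-CoA, made by Acacb and broken down by Mlycd, blocks Cpt1b and so sets the rate of entry.

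The deposited intensities were on a linear scale, with medians of 671 to 699 per array and an upper limit of 44145 to 45552, to within 0.1% of which 57 to 106 probe sets came. With 3 and 4 arrays, their number limits the precision. The Nos3 probe set 1422622_at read 1145, 1413 and 1135 in the knockouts, against 791, 1163, 872 and 1058 in the wild types. The targeted transcript was thus not lower on the arrays labelled knockout (log2 difference 0.35 ± 0.15 SE, adjusted p = 0.42 by limma). Whether this probe set lies inside or outside the deleted sequence was not stated in the labels, so that it checks nothing about them, and all directions below are those of the labels. Arrays were hybridized on 4 days, coded from the earliest. Knockouts M4 and M10 were run together on day 3, wild types M23 and M158 together on day 4 and wild type M125 alone on day 2, so that day 1, with knockout M140 beside wild type M128, was the one day shared by both groups.

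Of the 13 probe sets, 11 read lower in the knockout than in the wild type, with Fabp3 among them only by the arrays' limits, and 2, of Slc27a1 and Crat, read higher. Mlycd, Slc25a20 and Cpt2 were at 0.60 to 0.65 times the wild-type mean on their probe sets other than the dim one of Cpt2, Cd36 at 0.72 to 0.92 times, Acacb at 0.81 times, and Crat at 0.67 and 1.05 times. Slc27a1, a membrane transporter of fatty acids, overlapped between the groups, and Fabp3 was at the upper limit on every array and gives no fold. Of the 13 probe sets, all of which passed the filter on dim values, 0 passed an adjusted p of 0.05 by limma, as was the case for 0 of all 13836 tested probe sets (0% called). At an unadjusted p under 0.05 there were 5 of 13, each of them lower in the knockout (38.5%). Over all tested probe sets the share was 11.8%, made up of 5.25% lower and 6.57% higher in the knockout. The knockout arrays lay wholly below the wild-type arrays for 5 of 13 and above them for 0, against 4.34% and 4.97% of all tested probe sets, or 9.3% in either direction. The 5 with an unadjusted p under 0.05 were 1 each of Cd36, Mlycd and Slc25a20 and 2 of Cpt2. Counting each of the 8 genes by its brightest probe set alone, 3 (Cd36, Mlycd and Cpt2) had an unadjusted p under 0.05, with the knockout lower and wholly below the wild type. Among all 8869 tested genes 12.2% had such a p (5.4% lower, 6.77% higher), and the knockout lay wholly below in 4.89% and wholly above in 5.29%. The listed genes were chosen with earlier results of these data known, and probe sets of the same gene are not independent. These counts are therefore a description and not a test.

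With the brightest probe set of each gene, meaning the highest mean over all arrays, the median log2 difference of the 8 genes was -0.42, against -0.0027 over all tested genes. It was -0.53 over the 7 genes below the upper limit, and -0.28 over the 8 genes with the mean of all probe sets of each gene. Differences were taken on log2(intensity + 16), which understates changes of dim probe sets. With limma array weights, which give less influence to arrays that deviate, 3 of the 13 passed an adjusted p of 0.05, as did 4.47% of all tested probe sets, and 8 of 13 had an unadjusted p under 0.05, against 23.5%. The 3 that passed were Cd36 1423166_at (adjusted p = 0.0494), Mlycd (adjusted p = 0.0372) and Slc25a20 1423109_s_at (adjusted p = 0.0297).

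**Figure D1:**
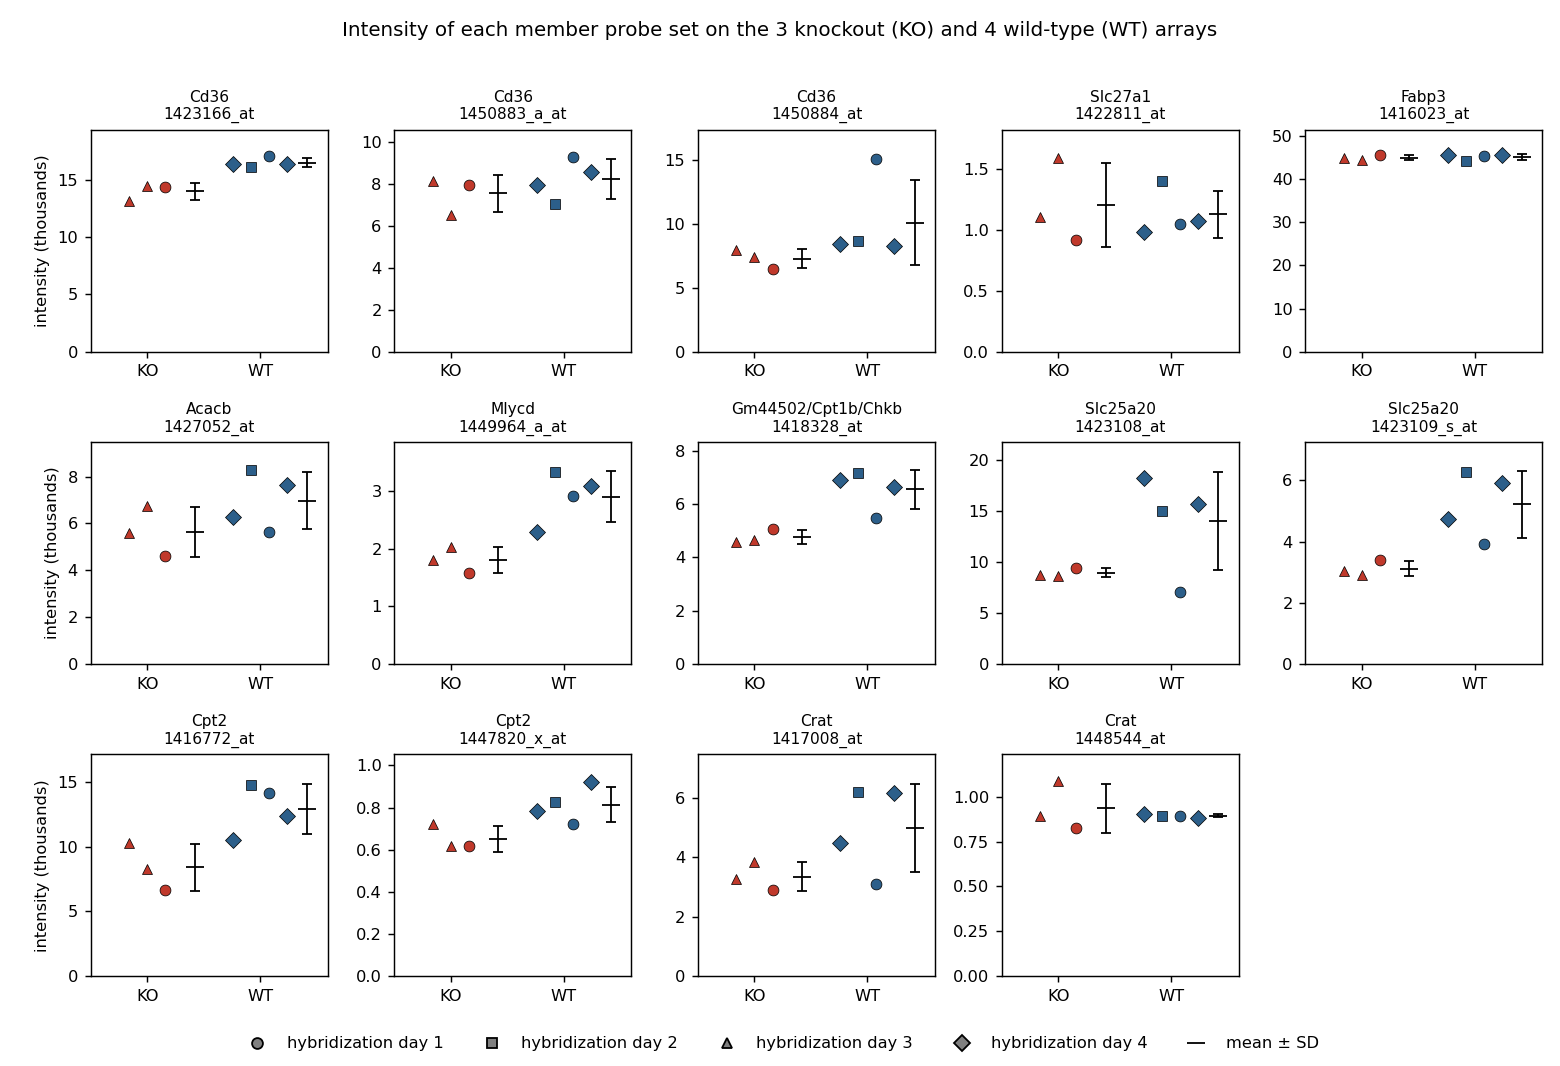
Deposited intensity (linear axes from 0) of each of the 13 probe sets and of the probe set shared by Gm44502, Cpt1b and Chkb, with 1 point per mouse, knockout left and wild type right; marker shape gives the hybridization day and bars the mean ± SD. Mlycd, Cpt2 1416772_at and Slc25a20 1423109_s_at show 3 knockout points below all 4 wild-type points, and Fabp3 sits at the upper limit throughout.

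The 250 bases before the annotated start of Mlycd, Slc25a20, Cpt2 and Cd36 are given from RefSeq (GRCm38.p6), 5′ to 3′ on the gene's strand. Mlycd, Slc25a20 and Cpt2 read lower in the knockout by group means, though not alike on every array, and Cd36 stands at the head of the path. Whether these genes share regulation was not tested. Capitals mark AGGTCA, the core element that PPAR, RXR and oestrogen-related receptors bind, and GGGCGG, the core of sites bound by Sp1, each on either strand. Mlycd lies on the plus strand at chr8:119394644-119394893, Slc25a20 on the plus strand at chr9:108661886-108662135, Cpt2 on the minus strand at chr4:107923590-107923839 and Cd36 on the minus strand at chr5:17835897-17836146.
Mlycd: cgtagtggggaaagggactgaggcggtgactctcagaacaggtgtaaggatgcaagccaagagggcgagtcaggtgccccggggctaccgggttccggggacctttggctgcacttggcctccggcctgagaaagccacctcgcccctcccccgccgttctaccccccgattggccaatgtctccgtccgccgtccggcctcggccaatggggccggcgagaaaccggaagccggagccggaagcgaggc
Slc25a20: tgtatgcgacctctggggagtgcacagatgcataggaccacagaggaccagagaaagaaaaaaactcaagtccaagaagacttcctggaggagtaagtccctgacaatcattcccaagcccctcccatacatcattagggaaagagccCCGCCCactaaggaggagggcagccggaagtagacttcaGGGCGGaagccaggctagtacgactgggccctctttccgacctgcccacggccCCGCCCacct
Cpt2: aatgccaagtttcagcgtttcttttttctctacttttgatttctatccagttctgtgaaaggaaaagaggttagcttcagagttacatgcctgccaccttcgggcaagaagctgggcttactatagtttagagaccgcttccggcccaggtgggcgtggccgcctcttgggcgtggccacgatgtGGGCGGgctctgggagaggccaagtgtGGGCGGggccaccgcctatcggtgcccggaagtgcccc
Cd36: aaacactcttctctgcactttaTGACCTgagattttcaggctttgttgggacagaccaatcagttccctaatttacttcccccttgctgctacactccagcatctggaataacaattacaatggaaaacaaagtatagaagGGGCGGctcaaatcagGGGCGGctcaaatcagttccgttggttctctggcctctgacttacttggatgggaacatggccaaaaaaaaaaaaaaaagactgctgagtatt
The Cd36 window held 1 AGGTCA, on the opposite strand at bases 23 to 28, and 2 GGGCGG. The Slc25a20 window held 3 GGGCGG, the Cpt2 window 2 and the Mlycd window 0, and no copy of AGGTCA lay in these 3. The AGGTCA letters were present in 14% and GGGCGG in 32.7% of all 32851 promoter windows of this length. The table had windows for 8 of the 10 genes, 11 in all. AGGTCA occurred in none of those of Slc27a1, Fabp3, Acsl1 and Acacb. GGGCGG occurred in windows of Slc27a1 (0, 1 and 3 copies) and Acsl1 (4 and 0 copies), but not in those of Fabp3 and Acacb. A match is a description of letters and not of a bound site.

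Cd36, the fatty acid translocase, was read by 3 probe sets that all stood lower in the knockout. The brightest, 1423166_at, read 13133, 14432 and 14403 in the knockouts, against 16371, 16144, 17090 and 16407 in the wild types. All knockout arrays lay below all wild-type arrays, and the wild-type arrays varied by only 1.06 times from lowest to highest. The difference was small, -0.24 ± 0.08 (SE) on the log2 scale (adjusted p = 0.308; 95% interval -0.42 to -0.06). The second, 1450884_at, read 7914, 7430 and 6454 in the knockout, against 8435, 8622, 15042 and 8238 in the wild type. Its groups also did not overlap, but M128 stood at 15042 against 8238 to 8622 on the other wild-type arrays. Its log2 difference was -0.43 ± 0.22 (SE; adjusted p = 0.512), and it was -0.22 without M128. The third, 1450883_a_at, overlapped between the groups, with means of 7530 ± 880 (SD, n = 3) in the knockout and 8204 ± 955 (SD, n = 4) in the wild type. Its log2 difference was -0.12 ± 0.14 (SE; adjusted p = 0.801), and -0.02 without M10. Cd36 is also made by capillary endothelium, macrophages and fat cells. In bulk tissue, fewer cells of a type and less RNA per cell cannot be told apart.

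Slc27a1, which takes up fatty acids at the membrane and couples this to activation, had 1 probe set, 1422811_at. It read 1111, 1593 and 923 in the knockouts, against 982, 1408, 1048 and 1078 in the wild types. The groups overlapped, the highest arrays being M10 and M125. This gave a log2 difference of 0.07 ± 0.20 (SE; adjusted p = 0.929), with a 95% interval of -0.38 to 0.53, and it was -0.14 without M10. M10 and M125 were also the arrays with the most Myl7, the atrial myosin light chain, at 17557 and 16097 against 356 to 2926 on the other 5. The Slc27a1 difference was -0.03 with M10 and M125 both left out, and 0.04 with log2 Myl7 as a covariate. The part of atrial tissue in the Slc27a1 values was not tested beyond these fits.

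Fabp3, the fatty acid binding protein of heart and muscle cytosol, read 44869, 44424 and 45540 in the knockout, against 45552, 44145, 45291 and 45552 in the wild type. These were the highest values of each array, shared with Lpl 1415904_at, so that a change of Fabp3 in either direction would not show. No statement on its level follows.

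The pair that sets malonyl-CoA differed in size. Acacb, the mitochondrial acetyl-CoA carboxylase, read 5575, 6733 and 4625 in the knockouts, against 6295, 8271, 5634 and 7659 in the wild types. These groups overlapped, and the log2 difference was -0.30 ± 0.19 (SE; adjusted p = 0.587; 95% interval -0.73 to 0.13), and -0.17 without M140. Mlycd, the malonyl-CoA decarboxylase, read 1809, 2023 and 1573 in the knockout, against 2293, 3326, 2922 and 3088 in the wild type. Each knockout array was below each wild-type array, with means of 1802 ± 225 (SD, n = 3) and 2907 ± 442 (SD, n = 4).

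For Mlycd, the log2 difference was -0.68 ± 0.16 (SE; adjusted p = 0.224), the smallest adjusted p among the 13 probe sets, with a 95% interval of -1.05 to -0.31. It lay between -0.89 and -0.59 in all 20 alternative fits, each with an unadjusted p under 0.05. Knockout M140 minus wild-type M128, hybridized on the same day, differed by -0.89. The log2 value of Mlycd minus that of Acacb was -1.62, -1.73 and -1.55 in the knockout, against -1.45, -1.31, -0.94 and -1.31 in the wild type. The groups did not overlap in it, and their means were -1.63 ± 0.09 (SD, n = 3) and -1.25 ± 0.22 (SD, n = 4). Mlycd was therefore further below its wild-type level than Acacb on these arrays; this difference was taken after both were seen, was not tested, and rests on an Acacb value that M140 moves.

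Cpt1b is the muscle carnitine palmitoyltransferase of the outer mitochondrial membrane. Its shared probe set 1418328_at cannot tell it from the neighbouring choline kinase gene Chkb or the transcript Gm44502. It read 4566, 4649 and 5041 in the knockouts, against 6914, 7153, 5478 and 6624 in the wild types. The groups did not overlap, and the log2 difference was -0.45 ± 0.13 (SE; adjusted p = 0.286). With array weights the adjusted p was 0.0373. On day 1 the gap was narrower, at -0.12 for M140 minus M128.

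Slc25a20, the carnitine-acylcarnitine carrier of the inner membrane, had 2 probe sets. The brighter, 1423108_at, read 8722, 8603 and 9429 in the knockout, against 18198, 15000, 7050 and 15663 in the wild type. Wild-type M128 was the lowest of all 7 arrays, and the other 3 wild-type arrays stood above every knockout array. Its log2 difference was -0.56 ± 0.30 (SE; adjusted p = 0.52), -0.86 without M128 and 0.42 for M140 minus M128. The other, 1423109_s_at, read 3043, 2916 and 3398 in the knockout, against 4742, 6274, 3922 and 5929 in the wild type. M128 was again the lowest wild-type array, but here above all knockout arrays. The log2 difference was -0.72 ± 0.19 (SE; adjusted p = 0.254; 95% interval -1.14 to -0.29), and -0.21 for M140 minus M128. Probe sets whose name ends in _s_at or _x_at can also bind related transcripts.

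Cpt2, the carnitine palmitoyltransferase of the matrix side, read 10246, 8268 and 6682 in the knockouts at 1416772_at, against 10474, 14757, 14158 and 12341 in the wild types. The groups did not overlap, although knockout M4 and wild-type M23 were close. The log2 difference was -0.63 ± 0.18 (SE; adjusted p = 0.276; 95% interval -1.04 to -0.22), and -1.08 for M140 minus M128. The dim probe set 1447820_x_at read 722, 616 and 617 in the knockout, against 786, 827, 722 and 923 in the wild type. Knockout M4 equalled wild-type M128 there, and the log2 difference was -0.31 ± 0.10 (SE; adjusted p = 0.312).

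Crat, carnitine acetyltransferase, moves short acyl groups such as acetyl between coenzyme A and carnitine in the matrix. Its brighter probe set 1417008_at read 3276, 3864 and 2904 in the knockout, against 4494, 6196, 3097 and 6185 in the wild type. Wild-type M128 lay within the knockout range, and the other 3 wild-type arrays lay above it. A log2 difference of -0.53 ± 0.26 was found (SE; adjusted p = 0.481), and -0.09 for M140 minus M128. The dim probe set 1448544_at read 894, 1088 and 825 in the knockout, against 903, 894, 894 and 880 in the wild type. Its log2 difference was 0.06 ± 0.10 (SE; adjusted p = 0.88) and -0.05 without M10, so that the 2 probe sets of Crat did not point the same way.

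**Figure D2:**
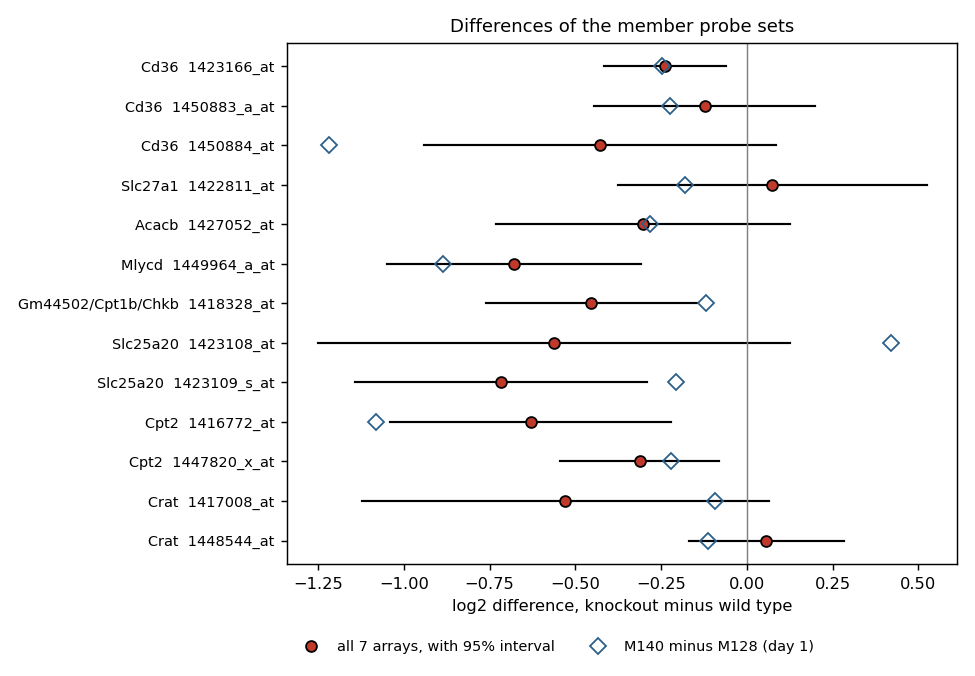
Log2 difference, knockout minus wild type, of each probe set below the upper limit in path order (filled circles, all 7 arrays, with limma's 95% interval) and of knockout M140 minus wild-type M128, the pair hybridized on day 1 (open diamonds, no interval). Of 12 member probe sets, 11 were lower in M140 than in M128, and Slc25a20 1423108_at stood at 0.42.

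Array by array, the knockout and wild-type groups were less uniform than single genes would imply. For each of the 7 genes below the upper limit, the log2 value was set against that gene's mean over all arrays. The median deviation was -0.23, -0.09 and -0.44 in the knockouts, against 0.00083, 0.43, -0.12 and 0.28 in the wild types. Wild-type M128 was thus below knockout M10. Knockout M140 was the lowest of all 7 arrays for 5 of these genes, and wild-type M125 the highest for 4. On M128 the genes split, with Slc25a20 and Crat far below their means and Cpt2 and Mlycd far above.

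**Figure D3:**
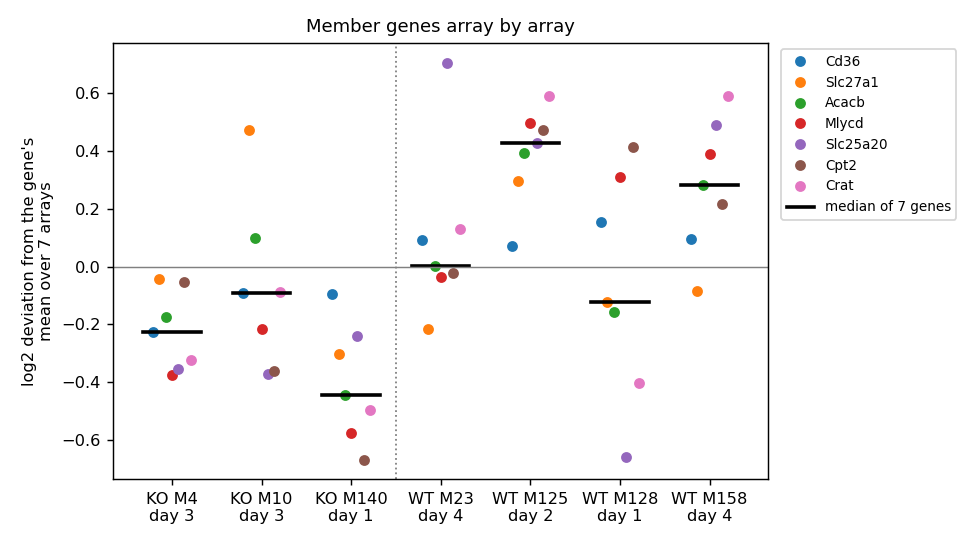
Log2 deviation of 7 genes from their own mean over the 7 arrays, knockout arrays left of the dotted line and wild-type arrays right, with a black bar at the median of the genes. The medians run from -0.44 on knockout M140 to 0.43 on wild-type M125, and M128 of the wild type, at -0.12, lies below knockout M10.

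Hybridization day cannot be separated from group outside day 1, the only day that held both groups. Over the 12 probe sets below the upper limit the median of M140 minus M128 was -0.22, with 11 of 12 negative, against 49.7% of all tested probe sets. M140 was the lowest of all 7 arrays for 7 of the 12, which come from 7 genes and compare 1 mouse with 1 mouse. With day as a fixed block, which rests on this pair, 3 of 13 had an unadjusted p under 0.05, against 16% of all tested probe sets, and the median log2 difference of the 8 genes was -0.21. The chip lot changed with the day on every array, so that lot and day cannot be told apart, and the sheet of M23 alone notes a combination of a first and a second processing. The Gapdh control signal, 5′ over 3′, was lowest on the day 4 arrays, 0.098 on M23 and 0.34 on M158 against 0.521 to 0.777 on the others. With M23 and M158 left out the median was -0.27 and the count 5 of 13, against 12.9% of all tested probe sets. With M10 and M125, the arrays rich in Myl7, left out the median was -0.41 and the count 3 of 13, against 10.8%. With log2 Myl7 as a covariate the median was -0.43 and the count 5 of 13, against 12.6%.

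Other genes of the same path were listed by role: lipolysis and uptake, binding, activation, carnitine supply, malonyl-CoA supply and nuclear regulators. Of 55 genes 48 were named and 38 tested, and 0 passed an adjusted p of 0.05 by limma. An unadjusted p under 0.05 was reached by 3 (7.89%), with lower values in the knockout each time. Among all tested genes the share was 12.2% (5.4% lower, 6.77% higher). The knockout lay wholly below the wild type for 5 of the 38 and wholly above for 0, against 4.89% and 5.29% of all tested genes. The median log2 difference of the 38 genes was -0.09. The count was 6 with array weights, 5 with day as a fixed block and 6 without M23 and M158, against 23.8%, 16% and 13.1% of all tested genes in the same fits. With all arrays and no weights the 3 were Vldlr, Slc22a5 and Ppargc1a.

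Vldlr, a receptor that brings triglyceride-rich lipoprotein to the muscle cell and its lipase, read 7809, 7998 and 10408 in the knockouts, against 11816, 15631, 14940 and 14551 in the wild types (1434465_x_at). The groups did not overlap, and the log2 difference was -0.71 ± 0.15 (SE; adjusted p = 0.186). Its probe set 1417900_a_at differed by -1.0 ± 0.29 and its probe set 1442169_at by 0.03 ± 0.14 (SE), and both overlapped between the groups. Lpl, the lipase that frees fatty acids from lipoprotein, was at the upper limit on 1415904_at and differed by 0.18 ± 0.23 (SE; adjusted p = 0.824) on 1431056_a_at. Fabp4, the binding protein of endothelium, fat cells and macrophages, read 35072 ± 2089 (SD, n = 3) in the knockout and 37634 ± 2885 (SD, n = 4) in the wild type on its brightest probe set, 1417023_a_at. The log2 difference there was -0.10, and -0.05 without M128. Its probe set 1451263_a_at differed by -0.13 ± 0.07 and its probe set 1424155_at by 0.19 ± 0.14 (SE), so that the probe sets of Fabp4 did not point the same way.

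Slc22a5, the carnitine importer of the cell membrane, read 2243, 2471 and 2086 in the knockout, against 3250, 4037, 5985 and 3376 in the wild type. All knockout arrays lay below all wild-type arrays, with M128 the highest. In log2 terms the difference was -0.83 ± 0.22 (SE; adjusted p = 0.255), -0.64 without M128 and -1.51 for M140 minus M128. Slc22a5 was the 1 of 6 tested genes of other carnitine acyltransferases and carnitine supply with an unadjusted p under 0.05 (16.7%). Among all tested genes the share was 12.2%. Cpt1a, the carnitine palmitoyltransferase of liver that the heart also makes, read 1844 ± 325 (SD, n = 3) in the knockout and 1634 ± 166 (SD, n = 4) in the wild type, with overlapping groups (adjusted p = 0.738). Of the 6 tested genes of malonyl-CoA and citrate supply, 0 had an unadjusted p under 0.05 by limma, against the same 12.2%. Acaca, the cytosolic acetyl-CoA carboxylase, differed by 0.02 ± 0.12 (SE).

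Ppargc1a, a coactivator of PPAR and oestrogen-related receptors on genes of fat oxidation, read 738, 833 and 1149 on its probe set 1456395_at in the knockout, against 4126, 4237, 3351 and 3153 in the wild type. The log2 difference was -2.03 ± 0.18 (SE, adjusted p = 0.0531), and the other 4 probe sets of the gene differed by -0.81 to -0.50 (adjusted p from 0.290 to 0.377). Of these, 1434099_at, 1434100_x_at and 1437751_at overlapped between the groups, and 1460336_at did not. Ppara, the fatty acid receptor of the PPAR family, was below the filter on its probe set 1449051_at and was not tested. It read 283, 352 and 352 in the knockout, against 369, 372, 352 and 370 in the wild type, where the filter stood at 514 to 542.

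**Figure D4:**
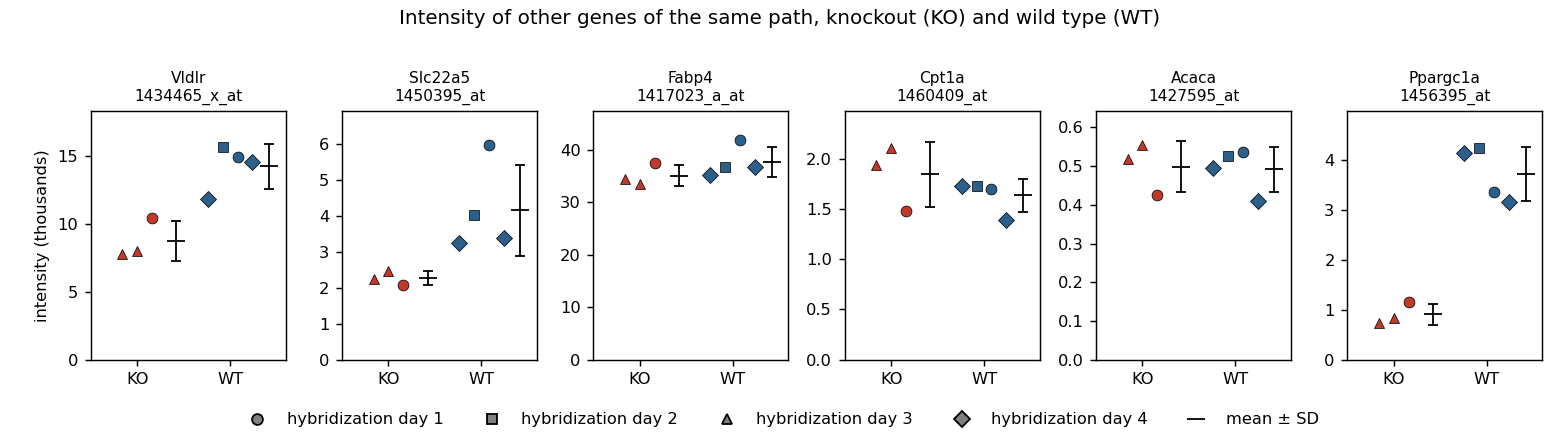
Deposited intensity (linear axes from 0) of Vldlr, Slc22a5, Fabp4, Cpt1a, Acaca and Ppargc1a on the 3 knockout (left) and 4 wild-type (right) arrays, with marker shape for hybridization day and bars for mean ± SD. On the probe sets shown, Vldlr, Slc22a5 and Ppargc1a have no overlap between the groups, and Fabp4, Cpt1a and Acaca overlap.

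Markers of the cells that use this path were set beside these values. Of 10 heart muscle markers, 7 reached the array's upper limit somewhere and cannot show a change of muscle content. Of those below it, Ryr2 differed by -0.01, Actn2 by 0.36 and Ckm by -0.66 on the log2 scale. The summed intensity of 10 endothelial markers was 27163 to 29232 in the knockout, against 21692 to 28467 in the wild type. Only 1 of the 10, Vwf, had an unadjusted p under 0.05, against 12.2% of all tested genes (6.77% higher). Vwf, which enters these sums, averaged 4310 in the knockout against 1819 in the wild type. Kdr and Egfl7 averaged lower in the knockout. Of 7 macrophage markers, 3 had an unadjusted p under 0.05, all higher in the knockout, against 12.2% of all tested genes (6.77% higher). The macrophage sums were 21515 to 26215 in the knockout against 16599 to 23447 in the wild type. Of the 4 fat cell markers named on the array 3, among them Adipoq, were below the filter, and the sums were 2086 to 3038 in the knockout against 2218 to 2463 in the wild type. Red cell markers, 4 named of 6, had summed intensities of 5483 to 10600 in the knockout against 4113 to 4915 in the wild type. Among them Alas2, the haem synthesis enzyme of red cell precursors, read 6236, 6484 and 2598 in the knockout, against 1649, 1675, 2123 and 2050 in the wild type. The knockout arrays lay above the wild-type arrays, with M140 the lowest of them, and the log2 difference was 1.33 ± 0.31 (SE; adjusted p = 0.222). Hbb-b2, a beta globin, differed by 0.41 ± 0.15 (SE). M140 minus M128 gave 0.29 for Alas2 and 0.02 for Hbb-b2. Both tested red cell markers had an unadjusted p under 0.05 and were higher in the knockout, against 12.2% of all tested genes (6.77% higher). Below the filter, Slc4a1 lay above the wild type on every knockout array, and Hba-a1 overlapped between the groups. The part of these cells in the differences above was not tested.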

How the data were processed

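Per the file headers, the arrays were of type MOE430A; how their values were summarized and scaled is not stated there or in the labels. The authors deposited linear probe set intensities, 22690 per array. Hybridization days came from the deposited experiment sheets, per the file headers (other text, no measurement). The 64 control probe sets were left out. A platform table named 1 gene for 20380 probe sets, several for 691 and none for 1555; 20351 matched RefSeq gene numbers, which changed 0 symbols.

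Values were taken as log2(intensity + 16), and probe sets above the 40th percentile of their array on at least 3 arrays were tested with limma 3.58.1 (lmFit and trended eBayes, two-sided tests; R 4.3.3), using Benjamini-Hochberg adjustment over all 13836 and a threshold of 0.05. All adjusted p-values are limma's. The fit was tested on simulated data. Named genes were the 10 listed genes, related genes with an unadjusted p under 0.05, Lpl, Fabp4, Cpt1a, Acaca, Slc22a5, Ppara, Ppargc1a, Nos3 and Myl7; others are said to be chosen later or are markers. Members and lists were chosen with earlier results of these data known. Labels do not say how animals were housed or bred. The p-values set the group difference against the spread between arrays within the groups. In the main fit this spread also holds any difference between hybridization days. Mouse numbers are not shared between groups, so that nothing was paired. Pairs of arrays correlated at 0.973 to 0.992 and held the exact same value for at most 7.18% of probe sets. Alternatives were the offset, quantile normalization, normexp background (offset 50), other filters, eBayes without trend, array weights, hybridization day, Myl7 as a covariate, other choices of probe set, and leaving out arrays; counting the shared probe set as Cpt1b was added after the data were seen. Promoter windows came from RefSeq (GRCm38.p6).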

Additional observations from a re-analysis of the deposited data

Results flagged for a closer look

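The 4 wild-type arrays were examined for a single array far from the rest on 19 probe sets below the upper limit (Dixon's ratio of the gap to the range on the log2 scale, above its 95% critical value for 4 samples), and 2 stood out; chance gives about 1 in 20. The first was Cd36 1450884_at, with a ratio of 0.924, where M128 read 15042 against 8238 to 8622 on the other wild-type arrays. Without M128 the log2 difference of this probe set was -0.22 in place of -0.43, and the knockout arrays remained below the other wild-type arrays. The second was Cpt1a 1460409_at, with a ratio of 0.927, where M158 read 1386 against 1698 to 1725. Its log2 difference, 0.16 with all arrays, was 0.09 without M158, 0.06 without M10 and 0.31 without M140. The knockout group, with 3 arrays, was not examined this way.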

How the results depend on the processing

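Over 20 alternative fits and 19 probe sets, 361 of 377 log2 differences kept their direction, and no fit moved the median of all tested probe sets by more than 0.014. The number of all probe sets past an adjusted p of 0.05, 0 as reported, was 1 with the 60th percentile filter, 619 with array weights, 1 with day as a fixed block, 2 without M10 and M125, 1 without M23 and M158, and 0 to 74 when single arrays were left out, the highest without knockout M10 and 27 without knockout M140. The 5 of 13 probe sets at an unadjusted p under 0.05 became 8 with array weights, 3 with day as a fixed block and 3 without M10 and M125. The 3 related genes became 6 with array weights, 5 with day as a fixed block, 6 without M23 and M158, and 3 to 5 without single arrays, with 5 without M140 or M158. The median of the 8 genes was -0.21 with day as a fixed block and also from day 1 alone, which is the same pair. Of the 16 differences that changed sign, Slc25a20 1423108_at was 0.42 with day as a fixed block. Slc27a1 was -0.18 with that block, -0.031 without M10 and M125, -0.044 without M23 and M158, and -0.14 to 0.25 without single arrays. Crat 1448544_at was -0.11 with the block, -0.054 without M10 and M125, and -0.055 to 0.14 without single arrays. Cpt1a was -0.19 with the block. Acaca was -0.33 with the block, -0.051 with day as a random block, -0.024 without M10 and M125, -0.10 without M23 and M158, and -0.063 to 0.13 without single arrays. Ppargc1a 1456395_at passed an adjusted p of 0.05 with the 60th percentile filter, with array weights, and without M10 or M140. On days 2 to 4, day (with chip lot) and group cannot be told apart, and the cause of the other shifts was not tested. Counts within day 1 could not be had, with 1 array per group.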

Other observations

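Acyl-CoA synthetases other than Acsl1 were measured; these values were picked out after they were seen. Acsl5, a synthetase of mitochondria and endoplasmic reticulum, read 1911, 1664 and 1564 in the knockouts, against 1585, 1233, 974 and 1709 in the wild types. The groups overlapped, and the log2 difference was 0.34 ± 0.20 (SE; adjusted p = 0.555 by limma). Acsl6 differed by 0.06 ± 0.23 (SE), and Dbi, the acyl-CoA binding protein, by 0.02 ± 0.15 on its brightest of 4 probe sets. Got2, a matrix aminotransferase also described as a fatty acid binding protein of the cell membrane, averaged 35121 ± 2571 (SD, n = 3) over knockouts and 33796 ± 3464 (SD, n = 4) over wild types, and Slc27a4 differed by -0.05 ± 0.11 (SE). Among the nuclear regulators, Esrra, the oestrogen-related receptor alpha, read 2103, 2448 and 2274 in the knockout, against 2450, 2567, 2925 and 2450 in the wild type. The knockout arrays lay below the wild-type arrays by a narrow margin, at -0.19 ± 0.12 on the log2 scale (SE; adjusted p = 0.605).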
